A study of Mus musculus with 24 samples.

Results

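The cytosolic and mitochondrial chaperones are the proteins that fold, refold and hand on other proteins outside the secretory pathway. A list of 40 genes of this kind was followed by symbol in every library, and all 40 were among the 23420 genes of the deposited files. The list holds the HSP90 proteins and their cochaperones, the HSP70 proteins and their nucleotide exchange factors of the HSP110 and BAG families, the J proteins that load clients onto HSP70, a small heat shock protein, the mitochondrial chaperonin, the cytosolic chaperonin TRiC and the transcription factor Hsf1. Of the 40 genes, 39 passed the filter on low counts and were tested. Hspb1, which codes for the small heat shock protein, did not pass: it never had more than 4 counts and had none in 12 of 24 libraries.

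HSP70 binds short unfolded stretches of a protein in a cycle driven by ATP, in which J proteins stimulate the binding step and exchange factors reopen the chaperone. HSP90 takes over late folding intermediates, among them kinases and steroid receptors, while TRiC encloses actin and tubulin and the Hspd1-Hspe1 chaperonin does the same for proteins imported into mitochondria. Many of these genes have constitutive expression that follows the load of new protein, and some, such as Hspa1a, Hspa1b and Dnajb1, are strongly induced through Hsf1 when proteins are damaged. A T cell leaving quiescence makes much more protein than a resting one.

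The 24 RNA libraries come from CD8+ T cells of 6 mice, taken from spleen and lymph nodes. All 6 mice carried floxed Tcf7 alleles and the OT-I transgene, which gives their T cells a single receptor specificity. Mice 1 to 3 also carried the E8i-cre transgene and are labelled Tcf7 cKO, and mice 4 to 6 lacked it and are labelled WT. E8i is an enhancer of the Cd8a locus, so that deletion is directed to CD8 cells, and an effect of the transgene cannot be told apart from one of the deletion. Each mouse gave a library at 0 h, before plating, and at 4, 8 and 24 h on wells with bound anti-CD3/anti-CD28 (1 ug/mL) and murine IL2 (6 ng/mL). The 8 groups of genotype and time have 3 mice each, and 1000 sorted cells went into each library. The age of the mice is not given in the sources used here.

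Libraries held 5846265 to 9700397 expected counts. Levels are given in TPM, which are shares of all transcripts and are scaled for gene length, so a level says nothing of the RNA content of a cell, and in bulk RNA fewer cells of a type and less RNA per cell cannot be told apart. Markers of CD8 T cells (4 of 5 listed genes in the files) summed to 662 to 4272 TPM, highest at 0 h. Those of B cells stayed between 0.91 and 52.4 TPM, of myeloid cells at or under 2.42, of CD4 T cells at or under 1.96, of dendritic cells at or under 6.38 and of erythroid cells and platelets at or under 21.4. The natural killer cell list summed to 584 to 2209 TPM, almost all of it Nkg7, which CD8 T cells also express. RNA of Tcf7 itself was 685, 681 and 719 TPM in the libraries labelled cKO at 0 h and 567, 552 and 499 in WT, and at 24 h it was 37.5, 35.7 and 38.3 against 62.6, 77.0 and 68.8. The gene-level RNA was lower in the libraries labelled cKO at 24 h (edgeR, adjusted p = 0.000221). At 0, 4 and 8 h its mean was higher there, at 695, 262 and 103 TPM against 540, 192 and 73.8, which goes against the label and was not called (adjusted p = 0.386, 0.113 and 0.184). So cKO stands below for the libraries labelled so, and counts over the whole gene do not read the floxed exon alone.

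As a group, the chaperones took a growing share of the transcriptome over the day. The 40 genes summed to 1.01% of all TPM in WT cells at 0 h, 1.84% at 4 h, 2.61% at 8 h and 2.79% at 24 h, and to 1.06, 1.78, 2.45 and 2.78% in cKO cells. Single WT libraries ranged from 9141 to 12070 summed TPM at 0 h and from 27860 to 27950 at 24 h. The cKO libraries ranged from 9730 to 11390 and from 27420 to 28130 at those times, so the resting and the 24 h libraries were far apart in each genotype. The plot of summed levels shows that Hspa8 and the other HSP70 genes, TRiC and HSP90 made up most of this RNA. The mitochondrial chaperonin had the largest relative gain of the larger groups, from 591 ± 77.9 to 3208 ± 35.7 TPM (SD, n = 3) in WT, while the J proteins together only moved from 932 ± 170 to 1105 ± 26.9 TPM.

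**Figure D1:**
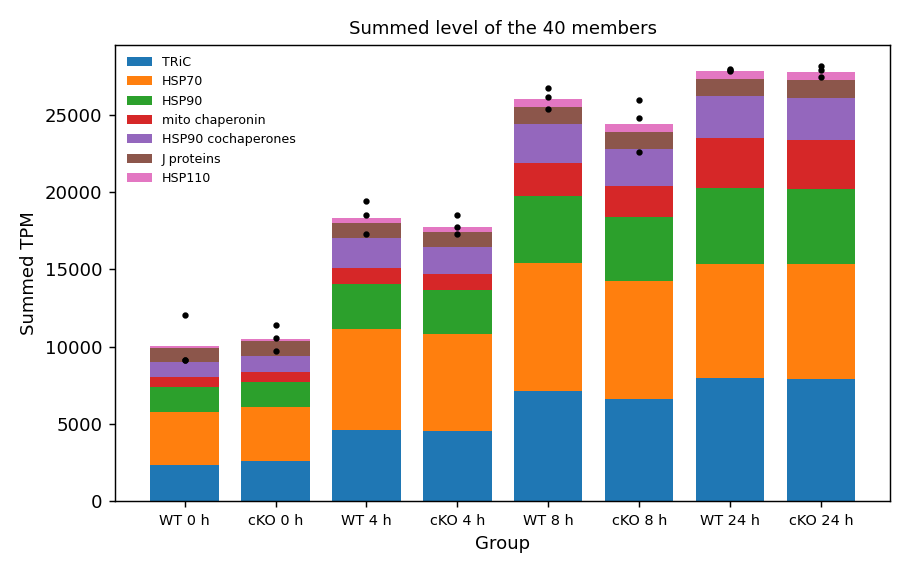
Summed TPM of the chaperone genes in the 8 groups, stacked by role as the mean of 3 mice, with black points for the sum over all 40 genes in each library. The BAG genes, Hspb1 and Hsf1 are too low to draw. The bars rise from 10130 TPM (WT) and 10560 (cKO) at 0 h to 27900 and 27820 at 24 h, with the widest spread of points at cKO 8 h and WT 0 h.

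Most calls fell in the first 8 h, and nearly all of those were increases. In WT, 29 of the 39 tested chaperones rose from 0 to 4 h and 3 fell, where 30% of all 11470 tested genes rose, 29.1% fell and 59% were called in either direction (edgeR quasi-likelihood test, adjusted p under 0.05). From 4 to 8 h, 24 rose and 2 fell (background 21.9% and 19.7%, 41.6% in all), and from 8 to 24 h, 8 rose and 6 fell (24.7% and 34.1%, 58.7% in all). Over the whole day 31 rose and 5 fell in WT (36.9% and 40.1%, 77% in all). In the cKO time course, measured in other mice, 28 rose and 3 fell from 0 to 4 h (29.6% and 27.6%, 57.2% in all), 22 rose and 1 fell from 4 to 8 h (20.8% and 19.6%, 40.4% in all), and 13 rose and 2 fell from 8 to 24 h (25.2% and 32.1%, 57.3% in all). From 0 to 24 h, 30 rose and 6 fell in cKO (37.3% and 39%, 76.3% in all). Consecutive steps share a group, so their counts are not independent.

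The median log2 fold change of the 39 genes in WT was 0.90 from 0 to 4 h, beside -0.04 for all tested genes, and 1.54 from 0 to 24 h, beside -0.08. In cKO the medians were 0.81 beside -0.002 and 1.50 beside -0.07. Because Hspa1b had no count in WT at 8 h, the steps that end or begin there are given over the other 38 genes, with medians of 0.59 from 4 to 8 h and 0.02 from 8 to 24 h. The last step depends on scaling. In WT, without the ribosomal gene Rn45s, which moved the median of all genes by 0.101, the split was 14 higher and 4 lower. Without mouse 3 (0.113) the WT split was 13 higher and 3 lower. In cKO, where the main fit had 13 higher and 2 lower, it was 16 and 2 without Rn45s (0.064). With no filter (0.107) the cKO split was 17 and 2. By mean TPM, 25 of the 39 genes were at their highest at 24 h in WT and 27 in cKO, where 31% of all tested genes peaked at 24 h in each genotype. The heat map of the single steps shows the same order gene by gene.

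**Figure D2:**
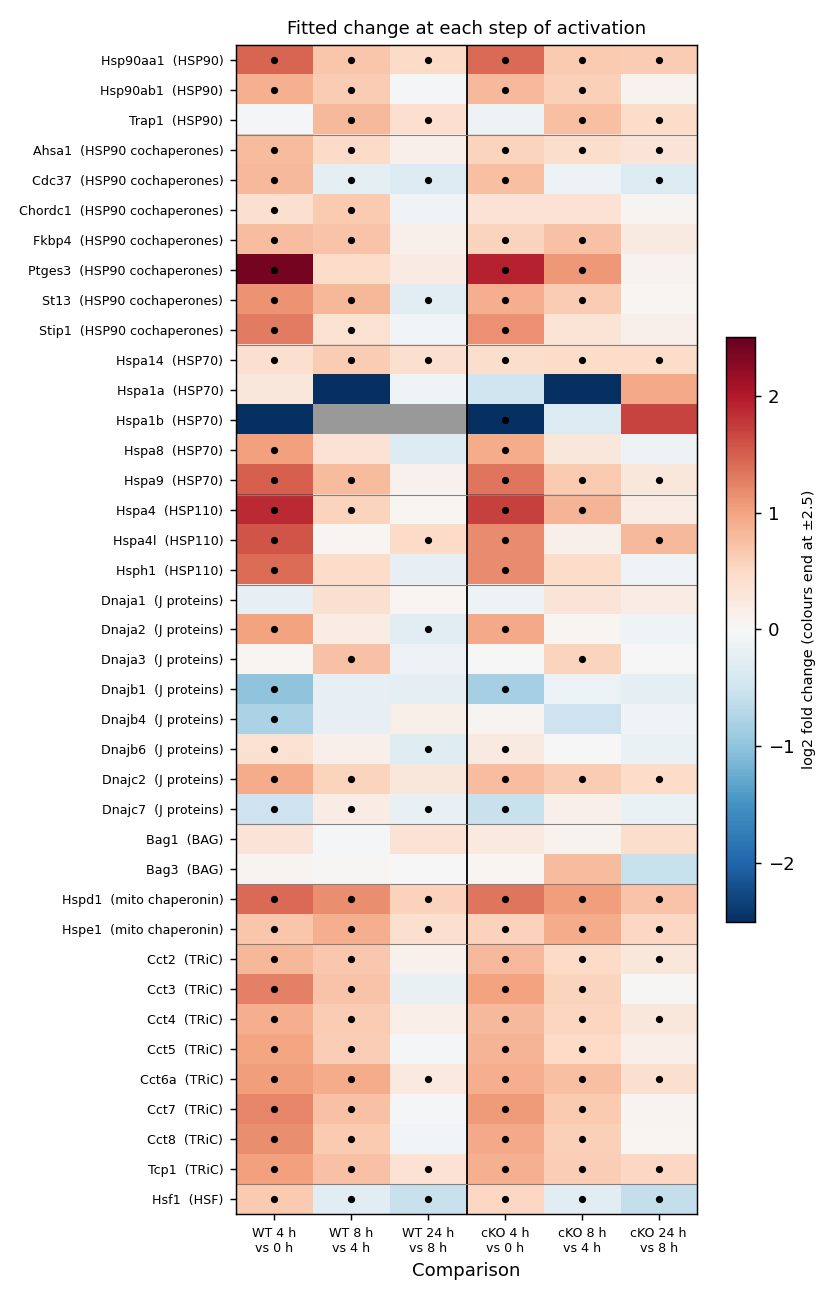
Fitted log2 fold change (colour, ending at ±2.5) of each tested chaperone at the 3 steps of activation in WT (left) and cKO (right), grouped by role; a dot marks an adjusted p under 0.05 and grey marks a step with a group that had no count. The first column of each genotype is red for most genes, with Dnajb1 and Dnajc7 blue and dotted in both, and the third column is pale.

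Promoter sequence was looked at for the element that Hsf1 is known to bind, to place the genes that share it beside their changes. Of the 40 genes, 32 had an entry in the RefSeq promoters (GRCm38.p6, 250 bases before to 50 after a start); Hsp90aa1, Hsp90ab1, Hspa8, Hspa9, Dnajc2, Cct4, St13 and Hsf1 had none. The strict heat shock element GAANNTTCNNGAA, searched on both strands with overlapping matches counted as 1 span, was present in 5 of the 32 genes (15.6%) and in 179 of 27025 genes of the table (0.662%). Hspa1a, Hspa1b and Dnajb1, named above as induced through Hsf1, were searched too and had no match to this strict pattern, nor had Bag3 and Hspb1. Hspa1a, Hspa1b and Dnajb1 were lower in WT at 24 h than at 0 h. The stretch of each gene with a match is shown 5′ to 3′ on the gene's strand with the matched bases in capitals. Hspd1 and Hspe1 lie head to head and share 1 span, which reads as the reverse complement in the other gene.
Hspd1: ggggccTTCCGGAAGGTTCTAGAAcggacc
Hspe1: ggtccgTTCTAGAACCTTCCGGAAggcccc
Dnajb6: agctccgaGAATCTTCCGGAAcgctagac
Hsph1: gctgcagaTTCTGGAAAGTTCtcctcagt
Chordc1: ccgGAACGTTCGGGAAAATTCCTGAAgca
The shared span of Hspd1 (minus strand) and Hspe1 (plus strand) is at chr1:55088053-55088082, and its element starts 89 bases before the Hspe1 start and 144 bases before an Hspd1 start. The promoter at the other listed Hspd1 start held no match. The Dnajb6 span is at chr5:29735844-29735872 (plus strand), from 46 bases before 1 listed start and 127 before the other. That of Hsph1 is at chr5:149636280-149636308 (minus strand), from 15 bases after 1 listed start and 36 after the other. That of Chordc1 is at chr9:18292260-18292288 (plus strand), from 4 bases before the start. All 5 genes rose in WT from 0 to 24 h, as did 31 of the 39 tested members and 36.9% of all tested genes. Dnajb6 rose the least, at 0.21 (SE 0.0861, adjusted p = 0.0288), which missed the threshold when mouse 4 or mouse 5 was left out, and was not called in cKO (0.05, adjusted p = 0.594). A match is a run of letters and not a measured binding site. The shorter letters CACGTG, an E-box, were in 2 of the 32 genes (6.25%, 8.09% of all genes), and CCAAT was in 16 (50%, 41.1% of all genes).

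The mitochondrial chaperonin, made of Hspd1 (HSP60) and its lid Hspe1 (HSP10), rose at every step in both genotypes. Hspd1 had the largest log2 increase of all members in WT from 0 to 24 h. In WT mice 4, 5 and 6, the order of all values given for single libraries, Hspd1 measured 158, 167 and 237 TPM at 0 h, 508, 459 and 443 at 4 h, 971, 1043 and 1020 at 8 h and 1669, 1618 and 1607 at 24 h. In cKO mice 1, 2 and 3, it measured 194, 210 and 187 TPM at 0 h, 468, 481 and 456 at 4 h, 882, 1010 and 928 at 8 h and 1587, 1597 and 1602 at 24 h. Every later group lay above the one before it in each genotype, with mouse 6 the highest of the WT mice at 0 h. The fitted log2 change from 0 to 24 h was 3.17 (SE 0.125, adjusted p = 4.51e-18) in WT and 3.10 (SE 0.124, adjusted p = 6.97e-18) in cKO.

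Hspe1 started higher and had the smaller fitted change. The WT mice had 383, 383 and 443 TPM at 0 h, 686, 574 and 592 at 4 h, 1074, 1166 and 1111 at 8 h and 1561, 1549 and 1622 at 24 h for Hspe1. The cKO mice had 424, 425 and 388 TPM at 0 h, 549, 608 and 598 at 4 h, 1042, 1128 and 1050 at 8 h and 1545, 1497 and 1675 at 24 h for Hspe1. The 4 times did not overlap in either genotype, although the step from 0 to 4 h was small. From 0 to 24 h the log2 change was 2.00 (SE 0.102, adjusted p = 1.78e-19) in WT and 2.00 (SE 0.101, adjusted p = 1.56e-19) in cKO. As TPM is scaled for length, the levels of both genes can be set side by side: the ratio of Hspd1 to Hspe1 was 0.461 ± 0.0651 in WT at 0 h (SD, n = 3), 0.763 ± 0.0322 at 4 h, 0.905 ± 0.0120 at 8 h and 1.03 ± 0.0401 at 24 h. In cKO the ratio went from 0.479 ± 0.0187 to 1.02 ± 0.0560, so that RNA of these partners reached about equal levels at 24 h.

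Both cytosolic HSP90 genes rose, and the less abundant of them had the larger fitted change. Hsp90ab1 codes for the constitutive form and was second only to Hspa8 among the members. Hsp90ab1 in WT mice was at 1228, 1364 and 1591 TPM at 0 h, 2527, 2490 and 2265 at 4 h, 3581, 3636 and 3699 at 8 h and 3860, 3941 and 3784 at 24 h. Hsp90ab1 in cKO mice was at 1363, 1530 and 1426 TPM at 0 h, 2295, 2459 and 2371 at 4 h, 3276, 3707 and 3535 at 8 h and 3860, 3896 and 3738 at 24 h. Times up to 8 h were apart in each genotype, and the 24 h libraries lay only slightly above those at 8 h. The log2 change from 0 to 4 h was 0.90 (SE 0.0846, adjusted p = 2.2e-11) in WT and 0.81 (SE 0.0845, adjusted p = 2.54e-10) in cKO, and from 8 to 24 h it was -0.02 (SE 0.0838, adjusted p = 0.84) and 0.08 (SE 0.0838, adjusted p = 0.428), neither called.

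Hsp90aa1 codes for the form known as stress inducible. Hsp90aa1 measured 143, 115 and 185 TPM at 0 h, 402, 388 and 352 at 4 h, 599, 586 and 582 at 8 h and 878, 887 and 886 at 24 h in WT mice 4, 5 and 6. Hsp90aa1 measured 130, 151 and 139 TPM at 0 h, 328, 366 and 363 at 4 h, 516, 575 and 526 at 8 h and 853, 858 and 873 at 24 h in cKO mice 1, 2 and 3. No 2 times overlapped in either genotype. Its log2 change from 0 to 24 h was 2.63 (SE 0.118, adjusted p = 5.82e-18) in WT and 2.70 (SE 0.118, adjusted p = 3.23e-18) in cKO, against 1.52 (SE 0.0857, adjusted p = 5.94e-18) and 1.49 (SE 0.0856, adjusted p = 9.43e-18) for Hsp90ab1. The ratio of Hsp90aa1 to Hsp90ab1 in TPM was 0.106 ± 0.0187 in WT at 0 h (SD, n = 3) and 0.229 ± 0.00477 at 24 h, and 0.0971 ± 0.00177 and 0.225 ± 0.00746 in cKO. Trap1, the mitochondrial HSP90, followed another course. It measured 76.0, 76.2 and 81.8 TPM in WT at 0 h and 73.6, 67.3 and 71.6 at 4 h, was not called at that step (log2 -0.04, adjusted p = 0.724) and then rose to 174, 176 and 167 TPM at 24 h, with a log2 change from 4 to 8 h of 0.82 (SE 0.0952, adjusted p = 9.57e-09). The cKO mice gave 0.76 (SE 0.095, adjusted p = 5.55e-08) for the same step.

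The list of 7 HSP90 cochaperones includes St13, a cochaperone of HSP70. All 7 were higher at 24 h than at 0 h in both genotypes by the test, and they differed widely in size and timing. Ptges3 (p23), which stabilises the closed, ATP-bound form of HSP90, had the largest early change. The WT mice had 59.5, 53.5 and 75.7 TPM at 0 h, 287, 338 and 302 at 4 h, 530, 420 and 279 at 8 h and 517, 480 and 516 at 24 h for Ptges3. The cKO mice had 44.1, 68.8 and 72.2 TPM at 0 h, 280, 236 and 142 at 4 h, 429, 480 and 463 at 8 h and 512, 489 and 512 at 24 h for Ptges3. At 4 h the lowest WT library was above all 3 cKO libraries, with mouse 3 the lowest, and at 8 h the WT mice were widely spread. By the test, the log2 change from 0 to 4 h was 2.39 (SE 0.248, adjusted p = 2.26e-07) in WT and 1.93 (SE 0.244, adjusted p = 2.75e-06) in cKO. The step from 4 to 8 h was called in cKO (1.09, SE 0.233, adjusted p = 0.00111) and not in WT (0.45, SE 0.23, adjusted p = 0.131), and the genotype difference at 4 h had log2 -0.53 (SE 0.232, adjusted p = 0.377).

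Fkbp4, an immunophilin that joins HSP90 on steroid receptors, had the highest mean TPM of the cochaperones over all 24 libraries, although Ahsa1 was above it in group mean at 0 h, and Stip1, Ahsa1 and Ptges3 were in WT at 4 h. Fkbp4 in WT mice was at 176, 176 and 220 TPM at 0 h, 322, 316 and 281 at 4 h, 454, 511 and 481 at 8 h and 567, 596 and 554 at 24 h. Fkbp4 in cKO mice was at 186, 225 and 215 TPM at 0 h, 295, 297 and 275 at 4 h, 421, 512 and 476 at 8 h and 557, 579 and 566 at 24 h. The 4 times did not overlap in either genotype. Steps from 0 to 4 h and from 4 to 8 h were called in both genotypes, and the step from 8 to 24 h was called in neither (0.14, adjusted p = 0.257 in WT and 0.22, adjusted p = 0.0621 in cKO), although 7 of 16 alternatives called it in WT and 12 of 16 in cKO. Over the day its log2 change was 1.63 (SE 0.106, adjusted p = 1.15e-15) in WT and 1.52 (SE 0.106, adjusted p = 6.36e-15) in cKO. Stip1 (HOP), the adaptor between HSP70 and HSP90, rose mainly in the first 4 h in WT, from 136, 124 and 222 TPM to 389, 382 and 335, with a log2 change of 1.29 (SE 0.156, adjusted p = 4.66e-07). Ahsa1, which activates the ATPase of HSP90, rose by 1.39 on the log2 scale in WT and 1.31 in cKO from 0 to 24 h, and St13 (HIP), a cochaperone of HSP70, by 1.67 and 1.57. Chordc1 rose least in this group apart from Cdc37, by 0.95 and 0.81, and its call at 4 h in WT (adjusted p = 0.0487) was lost in 10 of 16 alternatives.

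Cdc37, which brings kinases to HSP90, peaked at 4 h instead. It measured 184, 181 and 187 TPM in WT at 0 h, 320, 288 and 292 at 4 h, 239, 240 and 261 at 8 h and 202, 226 and 202 at 24 h. The 4 h libraries stood above all others. Its fitted changes in WT were 0.80 (SE 0.088, adjusted p = 6.13e-10) from 0 to 4 h and -0.34 (SE 0.0872, adjusted p = 0.00117) from 8 to 24 h, and cKO gave 0.76 (SE 0.0878, adjusted p = 2.23e-09) and -0.34 (SE 0.0873, adjusted p = 0.00133). In WT the fall was lost without mouse 6 and with no filter, and the small rise over the day was lost without mouse 5.

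Hspa8 (HSC70), the constitutive cytosolic HSP70, was the highest member in every group by mean TPM. Among all 23420 genes it ranked 72 by mean TPM in WT at 0 h and 6 at 8 h. Hspa8 measured 2750, 2659 and 4156 TPM at 0 h, 6402, 6047 and 5688 at 4 h, 7053, 7721 and 7590 at 8 h and 6386, 6391 and 6489 at 24 h in WT mice 4, 5 and 6. Hspa8 measured 2664, 3674 and 3331 TPM at 0 h, 5401, 6089 and 5761 at 4 h, 6116, 7350 and 7032 at 8 h and 6698, 6485 and 6193 at 24 h in cKO mice 1, 2 and 3. The 0 h libraries lay below all later ones, and mouse 6 stood above the other WT mice at 0 h. The fitted change (log2) from 0 to 4 h was 1.02 (SE 0.154, adjusted p = 1.75e-05) in WT and 0.92 (SE 0.153, adjusted p = 5.24e-05) in cKO, and no later step was called in either genotype in the main fit. DESeq2 called the rise from 4 to 8 h in WT (0.37, adjusted p = 0.0176). Without the 0 h library of mouse 6, chosen after seeing the data, edgeR called it in WT (0.36, adjusted p = 0.00626) and cKO (0.29, adjusted p = 0.0271). That setting also called a fall from 8 to 24 h in WT (-0.31, adjusted p = 0.0118). Its part of the summed chaperone TPM was 31.5% in WT at 0 h and 23.0% at 24 h, while the summed level rose.

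Hspa9 (mortalin), the HSP70 of the mitochondrial import motor, rose more steeply. The WT mice had 141, 135 and 161 TPM at 0 h, 412, 383 and 350 at 4 h, 620, 648 and 628 at 8 h and 755, 730 and 721 at 24 h for Hspa9. The cKO mice had 173, 159 and 144 TPM at 0 h, 383, 370 and 383 at 4 h, 522, 615 and 594 at 8 h and 714, 763 and 715 at 24 h for Hspa9. No 2 times overlapped in either genotype. The log2 change from 0 to 24 h was 2.38 (SE 0.0957, adjusted p = 1.97e-22) in WT and 2.28 (SE 0.0952, adjusted p = 6.16e-22) in cKO. The WT step from 8 to 24 h was not called in the main fit. Some alternatives called it, such as limma on log2(TPM + 1) (0.22, adjusted p = 0.0133), and others did not. In cKO the call at this step was lost without mouse 1 (adjusted p = 0.0753). Hspa14, an HSP70-like protein that works at the ribosome with Dnajc2, rose at each step in both genotypes and by 1.42 (SE 0.0937, adjusted p = 3.65e-16) in WT over the day, from 98.9, 101 and 104 TPM to 266, 272 and 250.

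Against this rise, the heat-inducible HSP70 genes were lower at 24 h. Hspa1a and Hspa1b are near-identical neighbours whose reads the counting could have split, so single values of each are uncertain. Hspa1a in WT mice was at 8.05, 7.72 and 9.13 TPM at 0 h, 0.62, 6.61 and 21.7 at 4 h, 1.14, 1.07 and 0.23 at 8 h and 0.74, 0.82 and 0.74 at 24 h. Hspa1a in cKO mice was at 0.58, 14.1 and 10.9 TPM at 0 h, 0.1, 0.08 and 17.5 at 4 h, 0.59, 0 and 0.42 at 8 h and 0.49, 0.79 and 0.69 at 24 h. At 4 h the mice of each genotype fell apart, with mice 3 and 6 high, mouse 5 between, and mice 1, 2 and 4 under 1 TPM. Mouse 1 was also low at 0 h, and every library was at or under 1.14 TPM from 8 h on. By the test, the log2 change from 0 to 24 h was -3.34 (SE 1.41, adjusted p = 0.0404) in WT and -3.60 (SE 1.45, adjusted p = 0.0327) in cKO, and each call was lost in 6 of 17 alternatives, such as leaving out mouse 5.

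Hspa1b had 1.98, 0.61 and 1.21 TPM in WT at 0 h and 0, 4.32 and 2.20 in cKO, and at 24 h no library was above 0.48 TPM. With the counts of both genes summed, the log2 change from 0 to 24 h was -3.31 (SE 1.33, adjusted p = 0.0326) in WT and -3.34 (SE 1.31, adjusted p = 0.0290) in cKO, and from 0 to 4 h it was 0.11 in WT (adjusted p = 0.939) and -0.81 in cKO (adjusted p = 0.555). Hspa1b alone was called at that step in cKO (-4.03, SE 1.25, adjusted p = 0.0102), and this call, 1 of the 3 falls counted above, was lost with the summed counts. Hspb1, the small heat shock protein, was near the detection limit throughout. In WT the files list it at 0.63, 0.48 and 0.28 TPM at 0 h, at 0.28, 0 and 0 at 4 h, at 1.42, 0.24 and 0.50 at 8 h and at 0 in all 3 at 24 h. In cKO the files list 0.21, 0.21 and 0 at 0 h, at 0 in all 3 at 4 h, at 0, 0 and 0.34 at 8 h and at 0.45, 0.20 and 0 at 24 h. No order of the groups can be read from counts this low.

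The HSP110 proteins, which exchange nucleotide on HSP70 and help it pull aggregates apart, all rose in the first 4 h. Hspa4 changed most of the 3. Hspa4 measured 52.3, 48.9 and 48.5 TPM at 0 h, 168, 180 and 160 at 4 h, 248, 248 and 226 at 8 h and 276, 264 and 266 at 24 h in WT mice 4, 5 and 6. Hspa4 measured 28.6, 47.8 and 54.4 TPM at 0 h, 156, 160 and 80.0 at 4 h, 212, 248 and 238 at 8 h and 274, 278 and 271 at 24 h in cKO mice 1, 2 and 3. Resting libraries were below all later ones, and at 4 h mouse 3 was far below the other 5 mice. The fitted change (log2) from 0 to 4 h was 1.87 (SE 0.228, adjusted p = 1.75e-06) in WT and 1.71 (SE 0.228, adjusted p = 4.98e-06) in cKO, and over the day it was 2.48 (SE 0.232, adjusted p = 2.63e-08) and 2.74 (SE 0.234, adjusted p = 7.34e-09). The step from 4 to 8 h in WT (0.56, adjusted p = 0.0484) was lost in 11 of 16 alternatives, among them the replicate block of mice.

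Hsph1 (HSP105) had the highest mean TPM of the 3 over all libraries, although Hspa4 was above it in group mean at 24 h in both genotypes. The WT mice had 58.6, 57.5 and 114 TPM at 0 h, 200, 196 and 167 at 4 h, 246, 246 and 255 at 8 h and 238, 226 and 232 at 24 h for Hsph1. The cKO mice had 70.0, 92.6 and 94.6 TPM at 0 h, 172, 182 and 195 at 4 h, 223, 253 and 260 at 8 h and 243, 236 and 227 at 24 h for Hsph1. Resting WT mice split into 2 low libraries and mouse 6, whose level was above every cKO library at 0 h, and all later libraries lay above those at 0 h. Its log2 change from 0 to 4 h was 1.39 (SE 0.192, adjusted p = 5.64e-06) in WT and 1.19 (SE 0.19, adjusted p = 3.33e-05) in cKO, with no call at a later step in the main fit. DESeq2 did call the rise from 4 to 8 h, at 0.47 in each genotype (adjusted p = 0.0103 in WT and 0.011 in cKO). Without the 0 h library of mouse 6, chosen after seeing the data, edgeR called it as well (adjusted p = 0.000143 and 0.000155). Hspa4l stayed low, from 2.52, 4.12 and 4.42 TPM in WT at 0 h to 14.3, 15.7 and 16.3 at 24 h, a log2 change of 2.10 (SE 0.226, adjusted p = 1.15e-09).

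Among the J proteins, as among the HSP70 genes, some rose and others fell. From 0 to 24 h in WT, 4 of 8 rose (Dnaja2, Dnaja3, Dnajb6 and Dnajc2) and 3 fell (Dnajb1, Dnajb4 and Dnajc7), while Dnaja1 was not called. In cKO 3 rose (Dnaja2, Dnaja3 and Dnajc2) and the same 3 fell. Of all tested genes 36.9% rose and 40.1% fell in WT, and 37.3% and 39% in cKO, so the J protein counts are near those shares. Dnaja2, a general cytosolic partner of Hspa8, had the highest mean TPM over all 24 libraries, although at 0 h Dnajc7 and Dnaja1 were above it in group mean. Dnaja2 in WT mice was at 170, 170 and 189 TPM at 0 h, 347, 324 and 322 at 4 h, 358, 363 and 361 at 8 h and 326, 309 and 326 at 24 h. Dnaja2 in cKO mice was at 187, 194 and 185 TPM at 0 h, 328, 345 and 352 at 4 h, 328, 353 and 343 at 8 h and 331, 336 and 313 at 24 h. The resting libraries were below all others and the 3 later times lay close together. Its log2 change from 0 to 4 h was 1.01 (SE 0.0812, adjusted p = 3e-13) in WT and 0.94 (SE 0.0809, adjusted p = 1.56e-12) in cKO. A fall from 8 to 24 h in WT (-0.28, adjusted p = 0.00323) was lost in 4 of 16 alternatives.

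Dnajc2 (MPP11) docks HSP70 at the ribosome to receive emerging chains. Dnajc2 measured 59.4, 54.2 and 53.9 TPM at 0 h, 97.5, 107 and 93.2 at 4 h, 144, 147 and 130 at 8 h and 184, 181 and 189 at 24 h in WT mice 4, 5 and 6. Dnajc2 measured 33.7, 61.6 and 68.5 TPM at 0 h, 98.9, 94.7 and 68.7 at 4 h, 122, 138 and 138 at 8 h and 187, 187 and 189 at 24 h in cKO mice 1, 2 and 3. The WT groups did not overlap in time, while in cKO mouse 1 was low at 0 h and mouse 3 was low at 4 h. From 0 to 24 h its log2 change was 1.77 (SE 0.177, adjusted p = 1.54e-08) in WT and 1.87 (SE 0.177, adjusted p = 6.29e-09) in cKO. Dnaja3, the J protein of mitochondria, was level from 0 to 4 h (0.05, adjusted p = 0.727 in WT), as Trap1 was, and rose from 4 to 8 h by 0.74 (SE 0.112, adjusted p = 1.37e-06) in WT and 0.56 (SE 0.112, adjusted p = 9.75e-05) in cKO.

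Dnajb1 (HSP40), the main heat-inducible partner of HSP70, fell. The WT mice had 107, 125 and 226 TPM at 0 h, 70.7, 68.1 and 73.9 at 4 h, 56.7, 61.0 and 59.6 at 8 h and 51.8, 55.4 and 55.8 at 24 h for Dnajb1. The cKO mice had 76.4, 170 and 169 TPM at 0 h, 74.4, 68.2 and 78.1 at 4 h, 58.9, 65.9 and 69.5 at 8 h and 60.4, 58.4 and 52.9 at 24 h for Dnajb1. Resting libraries were spread from 76.4 to 226 TPM, and all but mouse 1 lay above 100 TPM, while libraries from 4 h on lay between 51.8 and 78.1. The 0 h and 4 h groups did not overlap in WT, and in cKO mouse 1 at 0 h overlapped the 4 h libraries. The log2 change from 0 to 4 h was -1.01 (SE 0.261, adjusted p = 0.00306) in WT and -0.82 (SE 0.26, adjusted p = 0.0122) in cKO, and from 0 to 24 h it was -1.44 (SE 0.262, adjusted p = 8.45e-05) and -1.19 (SE 0.26, adjusted p = 0.000529). The 4 h call in WT was lost without mouse 6 and with only the 2 groups in the fit, and that in cKO was lost in 3 of 16 alternatives.

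Dnajc7, which binds both HSP70 and HSP90, fell from 198, 202 and 187 TPM in WT at 0 h to 131, 128 and 127 at 4 h, a log2 change of -0.51 (SE 0.0771, adjusted p = 5.33e-07), and measured 139, 133 and 127 at 24 h. The 0 h libraries were above all later ones. In cKO the same step had -0.56 (SE 0.0768, adjusted p = 1.07e-07), and the small WT changes at 8 and 24 h were each lost in 14 of 16 alternatives. Dnajb4, a low-level relative of Dnajb1, changed by -0.85 (SE 0.208, adjusted p = 0.000417) in WT and -0.56 (SE 0.211, adjusted p = 0.0169) in cKO over the day, and the cKO call was lost in 3 of 16 alternatives. Dnaja1 had 141, 144 and 298 TPM in resting WT mice and 222, 212 and 231 at 24 h, so that the later values lay between mouse 6 and the other resting mice. Its log2 change over the day was 0.24 (SE 0.217, adjusted p = 0.32) in WT, and without the 0 h library of mouse 6 it was 0.70 (adjusted p = 6.21e-06), past the threshold. In cKO, fitted with the same spread, leaving out that WT library moved the value from 0.37 (SE 0.217, adjusted p = 0.133) to 0.38 (adjusted p = 0.00219).

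Of the BAG exchange factors, Bag1 was low in all libraries. Bag1 in WT mice was at 24.1, 10.8 and 16.1 TPM at 0 h, 16.8, 19.3 and 23.6 at 4 h, 18.8, 20.6 and 15.7 at 8 h and 24.2, 21.3 and 31.3 at 24 h. Bag1 in cKO mice was at 12.5, 16.7 and 18.7 TPM at 0 h, 18.0, 19.1 and 15.9 at 4 h, 20.9, 17.5 and 16.3 at 8 h and 27.9, 24.9 and 24.2 at 24 h. The times overlapped, with the 24 h libraries in the upper part of the range, and no single step was called. Only the whole day was called, at 0.65 (SE 0.209, adjusted p = 0.00545) in WT, lost without mouse 6, and 0.77 (SE 0.207, adjusted p = 0.00107) in cKO. Bag3, which is known to rise with Hspa1a after heat and directs clients to autophagy, stayed between 0.89 and 2.56 TPM in all 24 libraries. It was not called in any time comparison of the main fit. From 4 to 8 h in cKO the main fit had 0.80 (adjusted p = 0.075). Of 15 alternatives, 1 called that step, limma on log2(TPM + 1) (0.48, adjusted p = 0.0356).

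TRiC is a double ring of 8 different subunits, and all 8 genes rose from 0 to 4 h and from 4 to 8 h in both genotypes. From 0 to 24 h in WT their log2 changes lay between 1.54 (Cct5) and 2.22 (Cct6a). Cct5 had the highest level at every time. Cct5 measured 461, 436 and 505 TPM at 0 h, 917, 847 and 833 at 4 h, 1206, 1348 and 1265 at 8 h and 1327, 1316 and 1317 at 24 h in WT mice 4, 5 and 6. Cct5 measured 500, 530 and 473 TPM at 0 h, 822, 848 and 874 at 4 h, 1080, 1236 and 1151 at 8 h and 1339, 1326 and 1348 at 24 h in cKO mice 1, 2 and 3. Times up to 8 h were apart in each genotype, and in WT the 24 h libraries lay inside the range at 8 h. By the test, the log2 change from 0 to 24 h was 1.54 (SE 0.0904, adjusted p = 1.17e-17) in WT and 1.50 (SE 0.0902, adjusted p = 2.71e-17) in cKO.

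Cct6a began among the lowest subunits. The WT mice had 181, 184 and 242 TPM at 0 h, 433, 392 and 351 at 4 h, 708, 736 and 721 at 8 h and 913, 924 and 922 at 24 h for Cct6a. The cKO mice had 238, 256 and 204 TPM at 0 h, 417, 426 and 402 at 4 h, 633, 705 and 709 at 8 h and 949, 930 and 898 at 24 h for Cct6a. No 2 times overlapped in either genotype. Over the day its log2 change was 2.22 (SE 0.109, adjusted p = 3.02e-19) in WT and 2.07 (SE 0.108, adjusted p = 1.74e-18) in cKO. Its step from 8 to 24 h in WT was lost without mouse 4 and without mouse 6.

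Cct3 had the largest early change of the subunits in WT. Cct3 in WT mice was at 286, 304 and 327 TPM at 0 h, 737, 706 and 618 at 4 h, 1067, 1111 and 1059 at 8 h and 1030, 1023 and 1017 at 24 h. Cct3 in cKO mice was at 374, 371 and 324 TPM at 0 h, 650, 680 and 685 at 4 h, 877, 1021 and 995 at 8 h and 1033, 1001 and 993 at 24 h. In WT the 8 h libraries were above those at 24 h, while in cKO these times overlapped, and at 8 h the cKO libraries lay below the WT ones. The fitted change (log2) from 0 to 4 h was 1.26 (SE 0.0906, adjusted p = 1.36e-14) in WT and 1.00 (SE 0.0899, adjusted p = 5.91e-12) in cKO. The other 5 subunits, Cct2, Cct4, Cct7, Cct8 and Tcp1, had mean levels of 211 to 332 TPM in WT at 0 h and 901 to 981 at 24 h.

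The subunits drew together as they rose, as the plot of the 8 genes shows. The coefficient of variation among the 8 group means was 28.2% in WT at 0 h, 26.9% at 4 h, 22.8% at 8 h and 13.8% at 24 h, and 26.6, 24.9, 21.0 and 14.8% in cKO. The highest mean was 2.31 times the lowest at 0 h in WT and 1.47 times at 24 h, and 2.16 and 1.51 times in cKO. The subunits are genes of 1 complex and not replicates, so these values describe the group means and carry no test. From 8 to 24 h in WT, Tcp1 and Cct6a were the subunits called in the main fit, both higher, at 0.37 (SE 0.0853, adjusted p = 0.000354) and 0.25 (SE 0.103, adjusted p = 0.0404). Cct2 and Cct4 were called higher there by DESeq2 (adjusted p = 0.0326 and 0.00866) and by limma (adjusted p = 0.00168 and 0.000113). In cKO the main fit called 4 of the 8 subunits higher at this step and 0 lower.

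**Figure D3:**
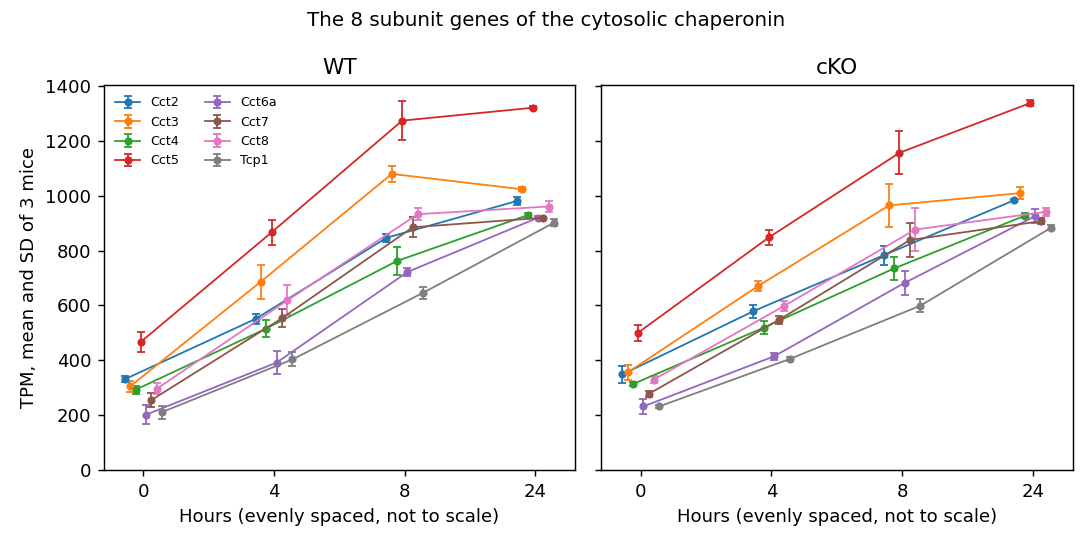
Mean TPM (with SD over 3 mice) of the 8 TRiC subunit genes at 0, 4, 8 and 24 h in WT (left) and cKO (right), on a linear axis from 0. Cct5 stays on top and the other 7 lines close up to between 883 and 1023 TPM at 24 h.

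Hsf1, the regulator of the heat shock genes, had its highest RNA level at 4 h. Hsf1 measured 48.0, 47.9 and 47.7 TPM at 0 h, 75.4, 67.9 and 67.7 at 4 h, 70.4, 45.5 and 54.7 at 8 h and 41.5, 41.7 and 40.4 at 24 h in WT mice 4, 5 and 6. Hsf1 measured 57.5, 52.3 and 63.7 TPM at 0 h, 78.1, 73.0 and 82.4 at 4 h, 55.3, 58.5 and 73.6 at 8 h and 41.6, 45.4 and 40.2 at 24 h in cKO mice 1, 2 and 3. The 4 h libraries were above all resting libraries in each genotype, the 8 h mice were widely spread, and the 24 h libraries lay below the resting ones. At 0 h the cKO libraries were all above the WT ones. The log2 change from 0 to 4 h was 0.65 (SE 0.103, adjusted p = 1.25e-06) in WT and 0.51 (SE 0.101, adjusted p = 4.13e-05) in cKO, and from 8 to 24 h it was -0.55 (SE 0.103, adjusted p = 2.28e-05) and -0.60 (SE 0.102, adjusted p = 6.38e-06). Over the whole day the change was called in cKO (-0.36, SE 0.102, adjusted p = 0.00161), a call lost without mouse 3, and not in WT (-0.17, SE 0.103, adjusted p = 0.13). These are levels of its RNA, and the activity of the protein was not measured.

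**Figure D4:**
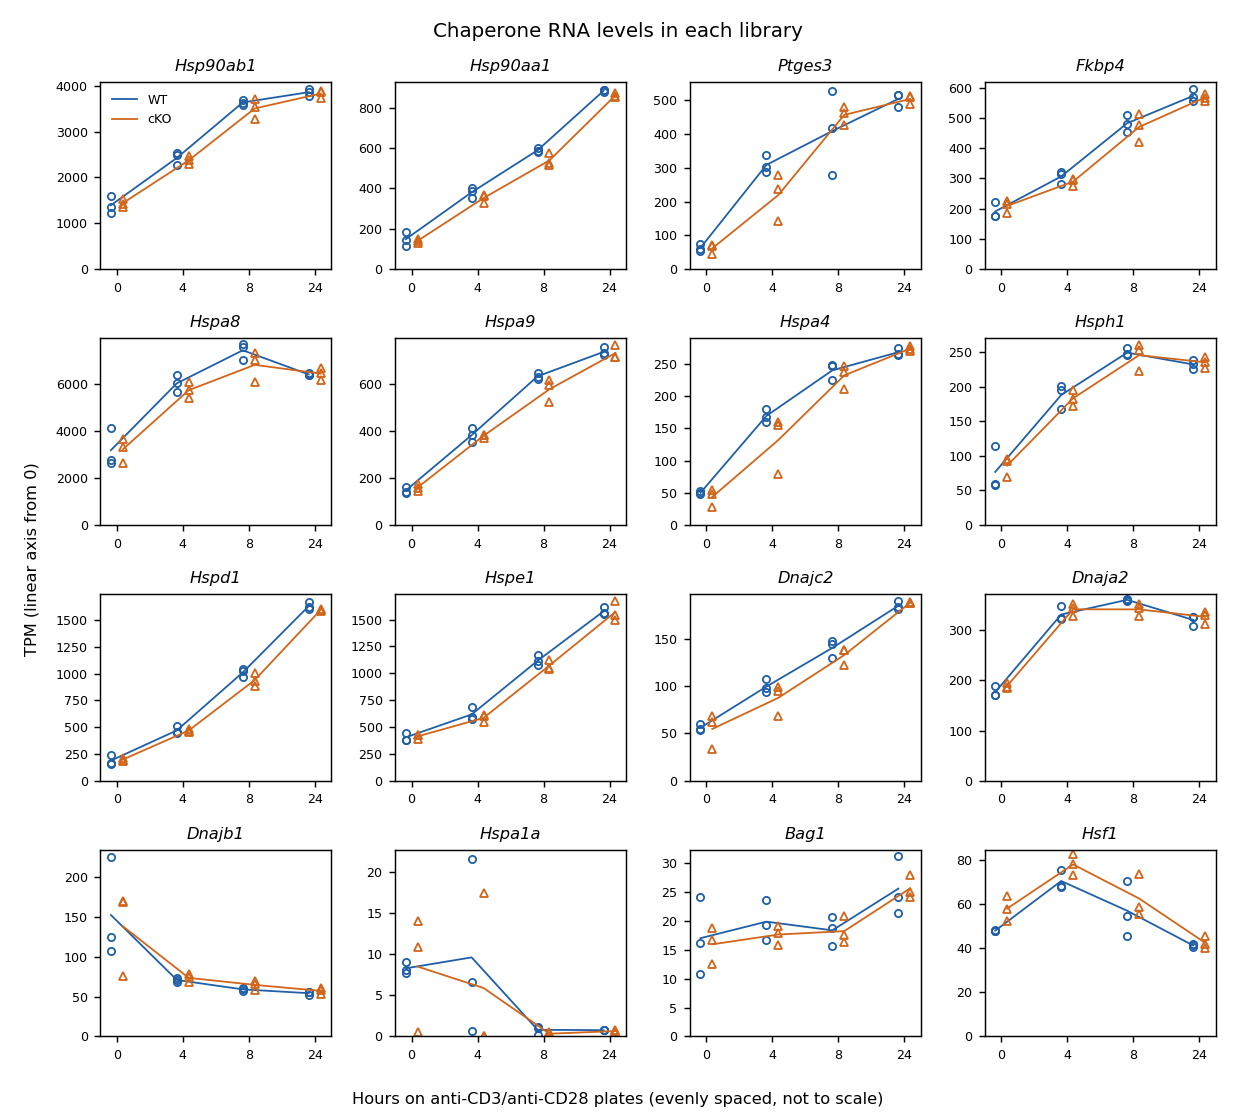
TPM of 16 chaperone genes in each library (blue circles WT, orange triangles cKO) at 0, 4, 8 and 24 h, with lines through the group means and a linear axis from 0 in each panel. Most panels climb with time; Dnajb1 drops after 0 h, Hspa1a is scattered up to 4 h and near 0 after it, and Hsf1 peaks at 4 h.

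The comparison of genotypes set the libraries labelled cKO beside those labelled WT, and no member was called at any time. As given above, the RNA of Tcf7 was lower in the libraries labelled cKO only at 24 h. At 0, 4, 8 and 24 h, 0 of 39 chaperones were called, where 0.445%, 0.82%, 0.183% and 0.105% of all tested genes were (edgeR). At an unadjusted p under 0.05 there were 4, 1, 6 and 0 members (10.3, 2.56, 15.4 and 0%), beside 7.37, 11.8, 9.93 and 3.69% of all tested genes, and DESeq2 and limma on log2(TPM + 1) also called 0 at each time. The lowest adjusted p was 0.562 at 0 h (Hsf1, higher in cKO), 0.377 at 4 h (Ptges3, lower) and 0.320 at 8 h (St13, lower). The plot of genotype differences shows points near 0 with SE of about 0.1 for most genes.

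For the 37 tested members other than Hspa1a and Hspa1b, the log2 differences lay between -0.52 (Bag3) and 0.24 (Hsf1) at 0 h, -0.54 (Bag3) and 0.43 (Dnajb4) at 4 h, -0.35 (Hspa4l) and 0.23 (Bag3) at 8 h, and -0.32 (Bag3) and 0.10 (Dnaja1) at 24 h. Their median approximate SE was 0.107, 0.105, 0.104 and 0.103 at the 4 times. St13 at 8 h measured 221, 276 and 241 TPM in cKO and 285, 299 and 286 in WT, without overlap, and had a log2 difference of -0.30 (SE 0.108, adjusted p = 0.32). Cct3, given above, came next at 8 h with -0.22 (SE 0.0885, adjusted p = 0.364). In TPM, the groups did not overlap for 3 of 39 members at 0 h, 5 at 4 h, 9 at 8 h and 4 at 24 h, beside 14.5%, 16.4%, 10.6% and 13.1% of all tested genes. At 8 h, 8 of those 9 were lower in cKO, among them Hspa9, Dnaja2, Cct2, Cct3, Tcp1 and Hsp90aa1. In TMM-scaled CPM the groups did not overlap for 2 members at 0 h, 2 at 4 h, 1 at 8 h (Hspa4l) and 3 at 24 h, beside 13.5%, 16%, 10.5% and 13.5% of all tested genes, so the count at 8 h depends on the scale.

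One resting library bears on Hsph1. With mouse 6 in the fit its genotype difference at 0 h was 0.13 (SE 0.19, adjusted p = 0.959); without the 0 h library of that mouse, an alternative chosen after seeing the data, it was 0.53 (adjusted p = 0.0194), and without all libraries of mouse 6 it was 0.53 (adjusted p = 0.0367). The 2 remaining WT libraries, at 58.6 and 57.5 TPM, were below the 3 cKO libraries at 70.0, 92.6 and 94.6.

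The interaction, which asks whether the change from 0 h differed between genotypes, was called for 0 of 39 members at 4, 8 and 24 h, beside 0.00872%, 0.00872% and 0.0174% of all tested genes (edgeR), and DESeq2 and limma called 0 as well. At an unadjusted p under 0.05 there were 2, 8 and 0 members (5.13, 20.5 and 0%), beside 7.11, 7.95 and 4.29% of all tested genes. The lowest adjusted p at 8 h was 0.402 for Cct3, with a log2 value of -0.41 (SE 0.126), a smaller fitted rise in cKO. A step called in 1 genotype and not in the other, as for Ptges3 from 4 to 8 h, is not shown to differ: the genotype difference of that step was not tested.

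**Figure D5:**
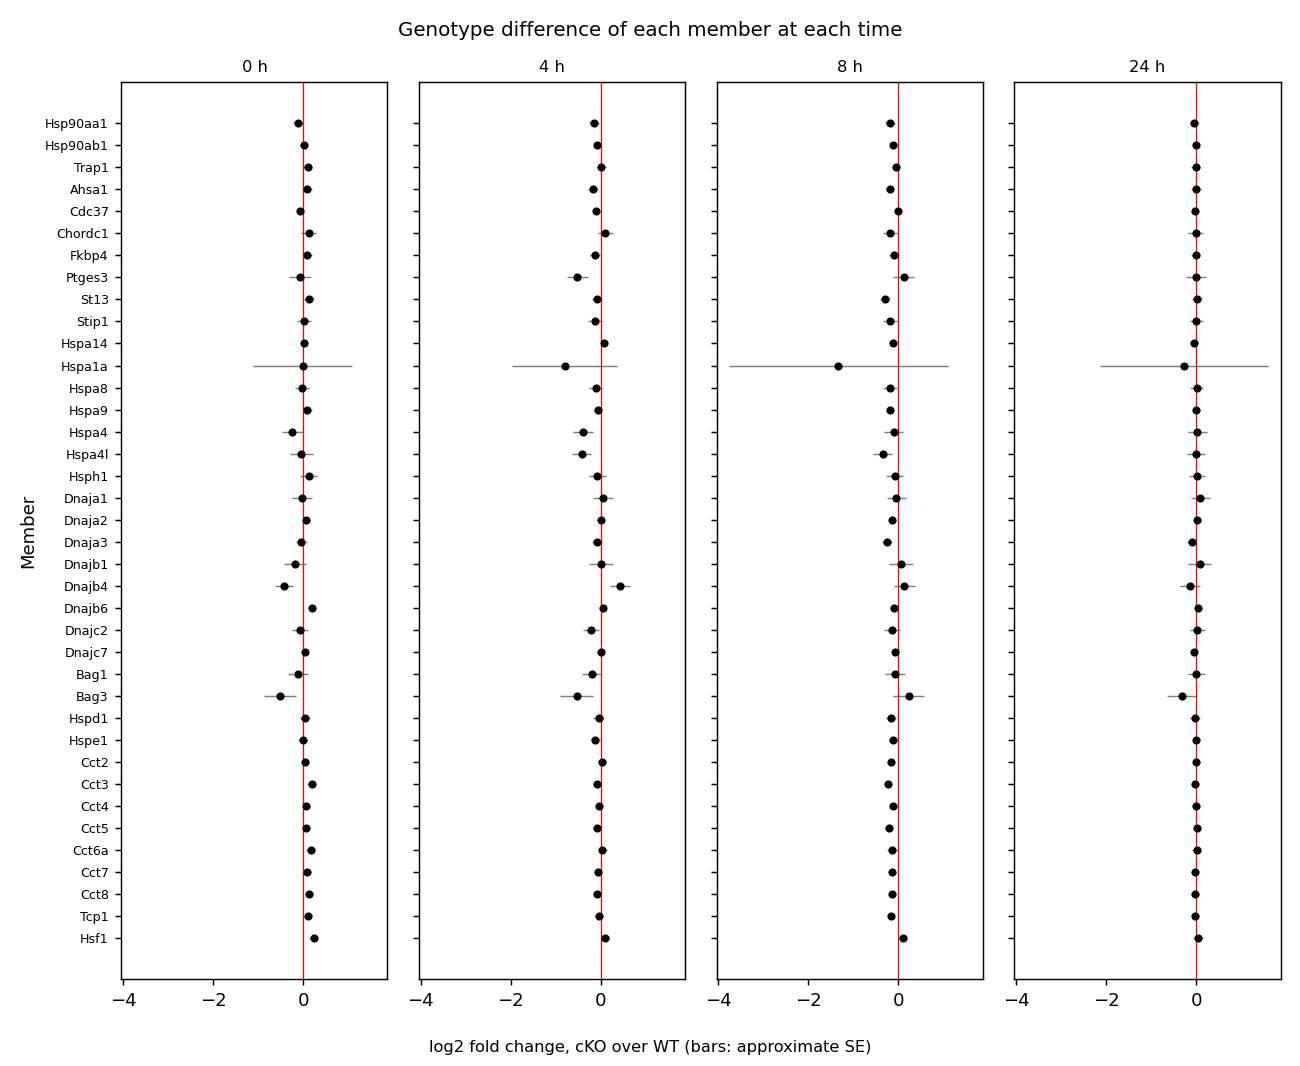
Fitted log2 fold change of cKO over WT for each tested member at 0, 4, 8 and 24 h, with bars for the approximate SE and a red line at 0. Hspb1, which was not tested, and Hspa1b, which had no count in WT at 8 h, are not drawn; nearly all points lie close to 0, and the widest bars belong to Hspa1a.

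Other genes of the folding network were taken from a list of 90, of which 89 were in the files and 81 tested. From 0 to 4 h in WT 41 rose and 13 fell, with a median log2 change of 0.38, and from 0 to 24 h 49 rose and 12 fell, with a median of 0.59. Of all tested genes in WT, 30% rose and 29.1% fell from 0 to 4 h, and 36.9% rose and 40.1% fell from 0 to 24 h. Both medians are below those of the 39 chaperones given above, as a description. In the cKO mice the day brought 50 higher and 15 lower, beside 37.3% and 39% of all tested genes.

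Mitochondrial quality control went mostly up, with 13 of 15 genes higher and 0 lower in WT at 24 h against 0 h and 13 higher and 2 lower in cKO, where of all tested genes 36.9% were higher and 40.1% lower in WT and 37.3% and 39% in cKO. It was led by the protease Lonp1 (2.81, adjusted p = 6.56e-22) and the import receptor Tomm70a (2.18, adjusted p = 4.04e-19). Of the HSP90 network, 10 of 18 rose and 4 fell in each genotype, among them the AAA+ proteins Ruvbl2 (2.88, adjusted p = 1.01e-23 in WT) and Ruvbl1 (2.13, adjusted p = 4.09e-21), the immunophilin Ppid (2.79, adjusted p = 3.63e-24) and the histone chaperone Nasp (2.55, adjusted p = 9.31e-21). Prefoldin, which delivers actin and tubulin chains to TRiC, was divided, with 5 of 7 tested genes higher and 2 lower in each genotype: in WT, Pfdn4 had a log2 change of 2.46, adjusted p = 2.04e-16 and Pfdn5 of -1.22, adjusted p = 7.41e-15. In the wider HSP70 network 13 of 25 rose and 3 fell in WT, and 16 and 3 in cKO, with Bag2 at 3.28, adjusted p = 1.46e-19 and Dnajc5 at -0.89, adjusted p = 2.29e-10. Cofactors of TRiC and tubulin rose in 6 of 8 cases in WT and 4 of 8 in cKO with 0 lower in either, for example Pdcl3 (1.01, adjusted p = 9.58e-11). Among heat shock regulators and further stress genes, Hmox1, an oxidative stress enzyme, was at 2.56, adjusted p = 1.87e-06, while Dedd2 was at -1.38, adjusted p = 2.47e-11 and Ubb, which codes for ubiquitin, at -0.39, adjusted p = 2.94e-05.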

How the data were processed

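Smart-seq2 libraries, which cover whole transcripts and carry no molecular identifiers, were made from 24 samples in 8 groups; groups come from the titles in the labels. STAR, RSEM and DESeq2 with the mouse genome mm10 are named in the submitters' processing notes, with no version. Each file deposited by the authors gives, per the file headers, an expected count of each gene, an estimate that need not be whole, and its TPM, the length-scaled share of transcripts. The authors also deposited FPKM, which was not used.

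Expected counts were rounded and tested with edgeR 4.0.16 (R 4.3.3). A filter on low counts over the 8 groups left 11470 genes, TMM scaled the libraries, and a robust quasi-likelihood fit of the 8 group means gave 15 comparisons. Tests were two-sided, adjusted by Benjamini and Hochberg over all tested genes of a comparison, with a call at an adjusted p under 0.05. The approximate SE of a log2 fold change is its size over the square root of F. The script was tested on simulated data. Alternatives used DESeq2 1.42.0, limma 3.58.1 on log2(TPM + 1), other filters, scaling and samples. Depth, 5846265 to 9700397 expected counts, limits members of few counts. In the main fit the spread of a gene was estimated once over all 8 groups, and all its p-values use that estimate. Libraries of the same mouse at different times were taken there as independent.

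The 40 members, their role lists and the related lists were chosen with earlier results of these data known, so that their counts are descriptions. Members given in every library were those called between genotypes, those with the largest called change in WT from 0 to 4 h or 0 to 24 h in their role list, or those with its highest mean TPM. From each related list up to 4 called genes with the lowest adjusted p are named; 1 gene that the rule names is not reported here. Times of 1 mouse pair by the titles of the libraries; deviations from group means correlated with a median r of 0.018 over 36 pairs of libraries (-0.085 to 0.163). Promoters are those of RefSeq (GRCm38.p6, the assembly of mm10).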

Additional observations from a re-analysis of the deposited data

How the results depend on the processing

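No called fold change of a member changed sign in any alternative, and the genotype and interaction counts stayed at 0 in every setting run except at 0 h, where leaving out 1 mouse gave 0 to 1 (Hsph1) and leaving out the 0 h library of mouse 6, chosen after seeing the data, gave 1. The step from 8 to 24 h in WT moved most: 8 higher became 15 with no filter, 13 with a filter of 5 CPM, 13 with only the groups compared, 14 without Rn45s and 14 with limma on log2(TPM + 1), and 6 lower became 2 with no filter; those settings moved the median of all genes by 0.085 to 0.137. Falls from 4 to 8 h were 1 in WT with only the groups compared and 1 without the 8 h libraries of mice 2 and 5, against 2. In cKO, against 1, they were 2 with DESeq2, 3 with limma, 0 without the 4 h library of mouse 3 and 2 without the 8 h libraries of mice 2 and 5. Falls from 0 to 4 h in cKO were 1 with only the groups compared, against 3. Leaving out each mouse in turn gave ranges in WT of 1 to 4 falls from 0 to 4 h, 0 to 3 from 4 to 8 h, 2 to 8 from 8 to 24 h (with 6 to 13 rises) and 3 to 5 from 0 to 24 h, and in cKO of 1 to 3, 0 to 1, 2 and 3 to 6. With the replicate block of mice, the WT counts from 0 to 24 h were 31 higher and 5 lower, and the cKO counts were 30 and 5; the block ended the calls of Hspa1b in cKO at 24 h against 0 h, Hspa4 and Dnajc7 in WT at 8 h against 4 h and Hspa4l in WT at 24 h against 8 h. Genotypes share no mouse, so no pairing applies there. In TMM-scaled CPM the level of Hsf1 in WT at 24 h over that at 0 h was 0.888. Low counts limit Hspb1, Hspa1a, Hspa1b and Bag3.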

Other observations

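At 0 h, 11 of 39 chaperones had a highest WT library at least 1.5 times the lowest (28.2%, against 24.8% of all tested genes with a value), a share near that of all genes: Hspa8, Hsp90aa1, Hsph1, Stip1, Chordc1, Hspd1, Dnaja1, Dnajb1, Bag1, Hspa4l and Hspa1b. Mouse 6 was the highest of the 3 in 32 of 39 chaperones and in 32.7% of all such genes. At 24 h, 1 of 38 chaperones had such a spread in WT, against 19.7% of all genes, and at 8 h in cKO 0 of 37 did, against 31.7%. Genes at 0 in any library of a group are left out, among them Hspa1a and Hspa1b at 8 h in cKO and Hspa1b at 24 h in WT. The shares at 4 and 8 h in WT were 10.5% and 7.9% (27.9% and 38.1% of all genes). In cKO they were 18.4%, 10.5% and 7.7% at 0, 4 and 24 h (28.6%, 31.4% and 19.6% of all genes). The members were not matched to other genes of like level.

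Mouse 2 was the highest cKO library in 22 of 38 chaperones at 0 h, 23 of 38 at 4 h and 24 of 37 at 8 h, beside 28.6, 22.5 and 24.9% of all genes. Mouse 3 at 4 h was low in Ptges3 (142 TPM, against 280 and 236) and Hspa4 (80.0, against 156 and 160). What sets these libraries apart was not tested.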
